A study of Mus musculus with 13 samples.

Results

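The 4 libraries described here hold the microRNAs (miRNAs) of vesicles pelleted from the plasma of tumour-free Balb/C mice, which served as the controls of a mouse cancer study. They were chosen by their labels alone and make up 4 of the 13 libraries of the series. The disease state of these mice is labelled Healthy, and neither treatment nor age nor sex is stated for them. No transgene, deletion or agent is named. Whether each library came from a separate animal is not stated, and the descriptions of replicates 2 and 3 carry 2 numbers each whose meaning is not given, so all SDs measure the spread between these libraries, which may be technical. Vesicles were pelleted by successive spins ending at 100000 g, and the small RNA libraries were read as single reads of 75 bases. The values are counts per mature miRNA, given below as the share of the miRNA counts of a library.

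A miRNA is a short RNA that guides Argonaute proteins to messenger RNAs, mainly through its seed, the stretch from base 2 to base 8. It is cut from a hairpin precursor whose 2 sides give a 5p and a 3p arm, and usually the cell keeps 1 arm more than the other. Blood plasma carries miRNAs in vesicles, on Argonaute and on lipoproteins, released by blood cells, platelets, endothelium and solid organs. Because some miRNAs are made in few cell types, such as miR-122 in hepatocytes and miR-451a in red cells, a plasma profile is often read by tissue. High-speed pellets of plasma can hold protein complexes and cell fragments besides vesicles.

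The sequences that the results turn on are given 5′ to 3′ with the seed in capitals. They come from a table of RefSeq mature miRNAs on GRCm38.p6, with a single chromosome left out. The build behind the counts was not stated. The first set holds the leading miRNAs found in that table, beside the relatives that share their seed, because counts of members that differ by few bases can be assigned to each other.
miR-148a-3p: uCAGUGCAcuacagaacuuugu
miR-148b-3p: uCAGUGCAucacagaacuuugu
miR-152-3p: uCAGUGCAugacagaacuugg
miR-451a: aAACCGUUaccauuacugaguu
miR-99a-5p: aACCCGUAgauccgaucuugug
miR-25-3p: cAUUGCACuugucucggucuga
miR-92a-3p: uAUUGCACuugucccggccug
miR-192-5p: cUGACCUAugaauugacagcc
miR-215-5p: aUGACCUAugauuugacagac
let-7i-5p: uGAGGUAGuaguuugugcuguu
let-7b-5p: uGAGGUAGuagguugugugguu
let-7g-5p: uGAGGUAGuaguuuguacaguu
miR-21a-5p: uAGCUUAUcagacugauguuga
miR-128-3p: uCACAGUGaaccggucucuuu
miR-126a-3p: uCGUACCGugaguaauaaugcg
Compared from the 5′ end, miR-148a-3p differs from miR-148b-3p at 2 of 22 bases and from miR-152-3p at 3 of 21. miR-25-3p and miR-92a-3p differ at 3 of 21 bases, as do miR-192-5p and miR-215-5p. let-7i-5p differs from let-7g-5p at 2 of 22 bases and from let-7b-5p at 3 of 22. miR-148a-3p lies at chr6:51269829-51269850 on the minus strand, outside the annotated genes searched. miR-451a lies at chr11:78073186-78073207 on the plus strand. miR-99a-5p lies at chr16:77598940-77598961 within the noncoding gene Mir99ahg, outside its exons. miR-25-3p lies at chr5:138165332-138165353 on the minus strand and overlaps an annotated exon of Mcm7. miR-21a-5p lies at chr11:86584120-86584141 on the minus strand and overlaps an annotated exon of Vmp1, and miR-126a-3p lies at chr2:26591402-26591423 and overlaps an annotated exon of Egfl7. miR-128-3p has 2 loci, in R3hdm1 on chromosome 1 and in Arpp21 on chromosome 9.

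The second set holds the arms whose use differed between libraries, and the third late-numbered miRNAs whose share was highest in replicate 4.
miR-423-5p: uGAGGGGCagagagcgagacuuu
miR-423-3p: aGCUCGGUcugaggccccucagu
miR-139-5p: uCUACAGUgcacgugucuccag
miR-139-3p: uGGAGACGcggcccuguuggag
let-7d-5p: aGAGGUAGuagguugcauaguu
let-7d-3p: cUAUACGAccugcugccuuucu
miR-5119: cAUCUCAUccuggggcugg
miR-5106: aGGUCUGUagcucaguuggcaga
miR-5108: gUAGAGCAcuggaugguuu
miR-7082-5p: uACGGGCAggaggaggggagg
miR-7222-3p: uCCAGGACagugggcaggagcag
miR-423 lies in Nsrp1 on chromosome 11, miR-139 in Pde2a on chromosome 7, and let-7d overlaps an annotated exon of the noncoding gene 6720427I07Rik on chromosome 13. miR-5119 lies at chr11:98262638-98262656 in an intron of Cdk12.

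Replicate 4 stood apart and was shallow, so many means are given with and without it, and others over all 4 libraries only. The libraries held 126010, 55769, 131385 and 7962 counts. miR-5119 took 0.0968%, 0.819% and 0.641% of the counts in replicates 1 to 3 and 46.1% in replicate 4 (95% Wilson interval 44.99% to 47.2%). With miR-5119 left out, 125888, 55312, 130543 and 4293 counts remained, and these are the totals of every share below unless stated. Where a miRNA was at 0, up to 3 counts could have been missed, which is 0.00238%, 0.00542%, 0.00230% and 0.0699% of the libraries in turn. These limits, and the intervals, describe counting error and nothing else, because copies made by PCR were not marked.

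Replicate 4 differed in other miRNAs too. The miRNAs numbered 5000 and above, late entries of the miRNA registry, held 0.184%, 1.87% and 0.826% in replicates 1 to 3 and 15.8% in replicate 4, miR-5119 not counted. In pairwise comparison, the counts that 2 profiles shared, taken as the sum over miRNAs of the smaller share, were 74.9% to 88.0% among replicates 1 to 3 and 52.3% to 56.6% between replicate 4 and each of these. Of the 20 leading miRNAs of each library, 16 or 17 were shared among replicates 1 to 3 and 9 to 11 with replicate 4. Across the 45 miRNAs with at least 10 counts in each library, Spearman's rho was 0.898 to 0.919 among replicates 1 to 3 and 0.437 to 0.487 with replicate 4. These coefficients are across miRNAs, which are not independent replicates, and the 45 share their libraries and depths. The part that depth or sample quality had in these differences was not tested.

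Liver, red cell and broadly secreted miRNAs led the profile. The liver miRNA miR-122-5p, the red cell miRNA miR-486a-5p and miR-148a-3p, which is abundant in liver and other secretory tissues, were the 3 leading miRNAs of replicates 1 to 3. In replicate 4 the leading 3 were miR-148a-3p, miR-122-5p and miR-1a-3p. These 3 named markers were therefore all among the 5 leading miRNAs of every library. Their order differed between libraries.

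miR-122-5p, which supports lipid and cholesterol metabolism in hepatocytes, held 25.5%, 24.97%, 7.63% and 10.9% in replicates 1 to 4. Its mean was 17.3% ± 9.33 (SD, n = 4), and 19.4% ± 10.2 (n = 3) without replicate 4. It was high in replicates 1 and 2 and lower in the others, which include the deepest library, replicate 3.

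miR-486a-5p, which promotes red cell formation, held 19.6%, 17.3%, 25.7% and 4.12%. Its mean was 16.7% ± 9.10 (SD, n = 4), and 20.9% ± 4.35 (n = 3) without replicate 4. The share in replicate 4 had a 95% Wilson interval of 3.57% to 4.76% and lay below the other 3 libraries. The ratio of miR-122-5p to miR-486a-5p was 1.30 and 1.45 in replicates 1 and 2, 0.297 in replicate 3 and 2.64 in replicate 4.

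miR-148a-3p, a regulator of lipid handling and of B cell tolerance, held 11.2%, 13.2%, 11.7% and 15.4%. Its mean was 12.9% ± 1.87 (SD, n = 4), and 12.02% ± 1.02 (n = 3) without replicate 4. It was the steadiest of the 45 miRNAs counted at least 10 times in each library, with a coefficient of variation (CV, the SD divided by the mean) of 0.145. Without replicate 4 its CV was 0.0847, the sixth lowest of the 116 miRNAs that then had at least 10 counts in each library.

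miR-451a, a red cell miRNA that matures through Argonaute 2 rather than Dicer, held 3.41%, 2.31%, 5.64% and 6.59% (4.49% ± 1.97, SD, n = 4, and 3.79% ± 1.70 without replicate 4). It came below miR-148a-3p in 4 of 4 libraries. Each other neighbouring pair among the 15 leading miRNAs kept its order in only 1 to 3 of the 4 libraries, so their ranks by mean are not separated by the spread. These orders are a description and were not tested.

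miR-1a-3p, which is made in heart and skeletal muscle, held 1.53%, 1.55%, 0.679% and 7.24%. It was the third miRNA of replicate 4, with an interval of 6.51% to 8.06%, and the ninth, ninth and 29th of the others. Its mean was 2.75% ± 3.02 (SD, n = 4) and 1.25% ± 0.496 (n = 3) without replicate 4.

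The other leading miRNAs included widely expressed ones and some known for a tissue. miR-99a-5p, whose family targets mTOR signalling, held 3.71%, 2.11%, 3.27% and 0.955%. miR-25-3p, from a cluster within a DNA replication gene, held 1.41%, 2.78%, 2.82% and 1.93%. miR-192-5p, made in gut, liver and kidney epithelium, held 2.61%, 2.54%, 1.54% and 1.47%. let-7i-5p, of the family that represses growth genes in differentiated cells, held 1.09%, 1.39%, 3.03% and 2.21%. The spreads of these 4 overlap. miR-30d-5p held 1.60%, 2.06%, 1.904% and 0.862%, and the smooth muscle miRNA miR-143-3p 2.22%, 1.20%, 1.13% and 1.23%. miR-21a-5p, induced in inflammation and many tumours, held 0.779%, 0.741%, 1.42% and 1.93%. The endothelial miR-126a-3p held 0.632%, 1.14%, 1.16% and 1.26%. miR-128-3p, abundant in brain and also present in blood cells, held 0.944%, 1.11%, 2.16% and 0.326%, and miR-151-3p 0.813%, 1.30%, 1.16% and 0.512%. Replicate 4 was the lowest library for miR-99a-5p, miR-192-5p, miR-30d-5p, miR-128-3p and miR-151-3p and the highest for miR-451a, miR-1a-3p, miR-21a-5p and miR-126a-3p.

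**Figure D1:**
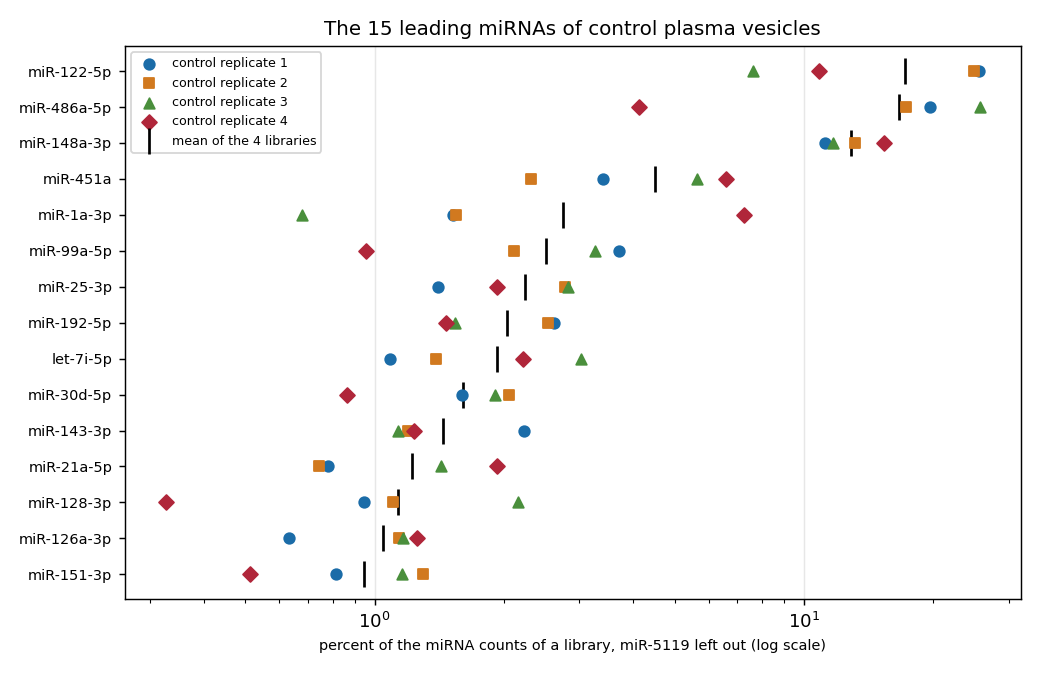
Share of the miRNA counts of each library, in percent on a log scale, for the 15 miRNAs with the highest mean share, miR-5119 left out. Points are the 4 control libraries and the black bar is their mean; miR-148a-3p lies within 11.2% to 15.4%, while miR-486a-5p runs from 4.12% to 25.7% and miR-1a-3p from 0.679% to 7.24%.

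The profile was read by tissue with lists of miRNAs known for their source. In bulk vesicle RNA, fewer vesicles of a source and fewer copies in each cannot be told apart, and most listed miRNAs are also made elsewhere. The list of red cell miRNAs held 23.3%, 20.1%, 32.2% and 11.2% in replicates 1 to 4 (21.7% ± 8.68, SD, n = 4, and 25.2% ± 6.27 without replicate 4). Of its 8 members 6 were in the table, and miR-486a-5p gave 76.8% of the list's mean. miR-16-5p, abundant in whole blood, had 28, 49, 88 and 11 counts, and miR-144-3p, the partner of miR-451a, 49, 17, 134 and 5.

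Red cell miRNAs enter plasma when cells lyse, and a common check is the log2 ratio of miR-451a to miR-23a-3p, which changes little with lysis. It was 7.71, 7.41, 7.82 and 5.24 in replicates 1 to 4, computed after adding 0.5 to each count. This ratio rests on 20, 7, 32 and 7 counts of miR-23a-3p. Its usual thresholds were set for other assays and were not applied. The ratio of miR-451a to miR-486a-5p was 0.174, 0.134, 0.220 and 1.60, so replicate 4 was the only library with more counts of miR-451a than of miR-486a-5p. The part of red cell lysis in the shares was not tested.

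The liver list rested on miR-122-5p. The liver list held 17.3% ± 9.33 (SD, n = 4), and miR-122-5p gave 99.98% of it. The opposite arm miR-122-3p had 12, 0, 4 and 0 counts, and both arms of miR-802, another liver miRNA, were at 0 in every library. The list of the miR-192, miR-194 and miR-215 clusters of liver, gut and kidney held 3.73%, 3.62%, 2.72% and 1.91% (2.996% ± 0.852, and 3.36% ± 0.551 without replicate 4). miR-215-5p, which shares the seed of miR-192-5p, held 0.968%, 1.01%, 1.105% and 0.349% and was low in replicate 4. miR-194-5p, encoded beside miR-192, had only 182, 36, 101 and 4 counts.

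Muscle miRNAs rested on miR-1a-3p. The list of skeletal and heart muscle miRNAs held 1.67%, 1.60%, 0.747% and 7.45% (2.87% ± 3.09, SD, n = 4), and 1.34% ± 0.513 without replicate 4. miR-1a-3p gave 95.9% of the list. miR-133a-3p, which is transcribed together with miR-1a, had 117, 16, 32 and 5 counts, and miR-206-3p, specific to skeletal muscle, had 44, 11, 34 and 3. The heart muscle miRNAs miR-208a-3p and miR-208b-3p were at 0 in every library, and miR-499-5p had 15, 0, 22 and 0 counts. The 7.45% of replicate 4 therefore stood on 311 counts of miR-1a-3p and 9 of other members.

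Vessel and blood cell lists were smaller. The endothelial and platelet list held 0.881%, 1.40%, 1.51% and 1.42% (1.30% ± 0.285, SD, n = 4), of which miR-126a-3p gave 80.5%. miR-222-3p had 219, 122 and 327 counts in replicates 1 to 3 and 0 in replicate 4. The smooth muscle list held 2.28%, 1.23%, 1.15% and 1.33% (1.496% ± 0.524), nearly all of it miR-143-3p. miR-145a-5p, from the same precursor transcript and a marker of smooth muscle, had 2, 0, 0 and 4 counts, while its other arm miR-145a-3p had 61, 18, 26 and 0. Replicate 1 was the low library of the endothelial list and the high one of the smooth muscle list.

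Leukocyte miRNAs were scarce. The myeloid list held 0.511%, 0.555%, 0.861% and 1.51% (0.860% ± 0.463, SD, n = 4, and 0.642% ± 0.191 without replicate 4). miR-223-3p, the main miRNA of neutrophils and platelets, had 7, 0, 7 and 4 counts, and its other arm miR-223-5p had 14, 4, 49 and 2. miR-142a-5p, made in all blood lineages, held 0.307%, 0.277%, 0.480% and 0.280%, and miR-146a-5p, induced by inflammatory signalling, 0.138%, 0.235%, 0.282% and 1.07%. The lymphocyte list held 0.342% ± 0.0477, with miR-181a-5p at 212, 134, 264 and 3 counts and miR-150-5p, the main miRNA of resting lymphocytes, at 96, 29, 79 and 7.

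Epithelial, pancreatic, cartilage and neural lists each held at most 2.17% in any library. The epithelial list held 0.521% ± 0.172 (SD, n = 4), led by the skin miRNA miR-203-3p with 231, 299, 613 and 11 counts. miR-200a-3p, of the family that keeps epithelial identity, had 63, 23, 65 and 2. The pancreas list held 0.199%, 0.284%, 0.433% and 0.0932%, led by miR-375-3p, the main islet miRNA, with 202, 134, 441 and 3 counts. The acinar miR-216a-5p was at 0. Also on the list, miR-216b-5p had 8, 0, 3 and 0 counts and miR-217-5p 3, 0, 15 and 0.

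The cartilage list held 0.568%, 0.752%, 0.554% and 1.93% (0.952% ± 0.661, SD, n = 4, and 0.625% ± 0.111 without replicate 4). miR-140-3p, needed for growth plate cartilage, led it with 0.419%, 0.526%, 0.372% and 1.82%. miR-455-5p had 172, 89, 163 and 4 counts, and its 3p arm was at 0 in every library. The neural list held 0.952%, 1.14%, 2.17% and 0.326%, but miR-128-3p gave 99.02% of it. The neuron and glia miRNAs miR-124-3p, miR-9-3p and miR-219a-5p were at 0 in every library, and miR-129-5p had 10, 9, 4 and 0 counts. Also on the list, miR-9-5p had 0, 8, 0 and 0 counts and miR-138-5p 0, 0, 4 and 0.

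**Figure D2:**
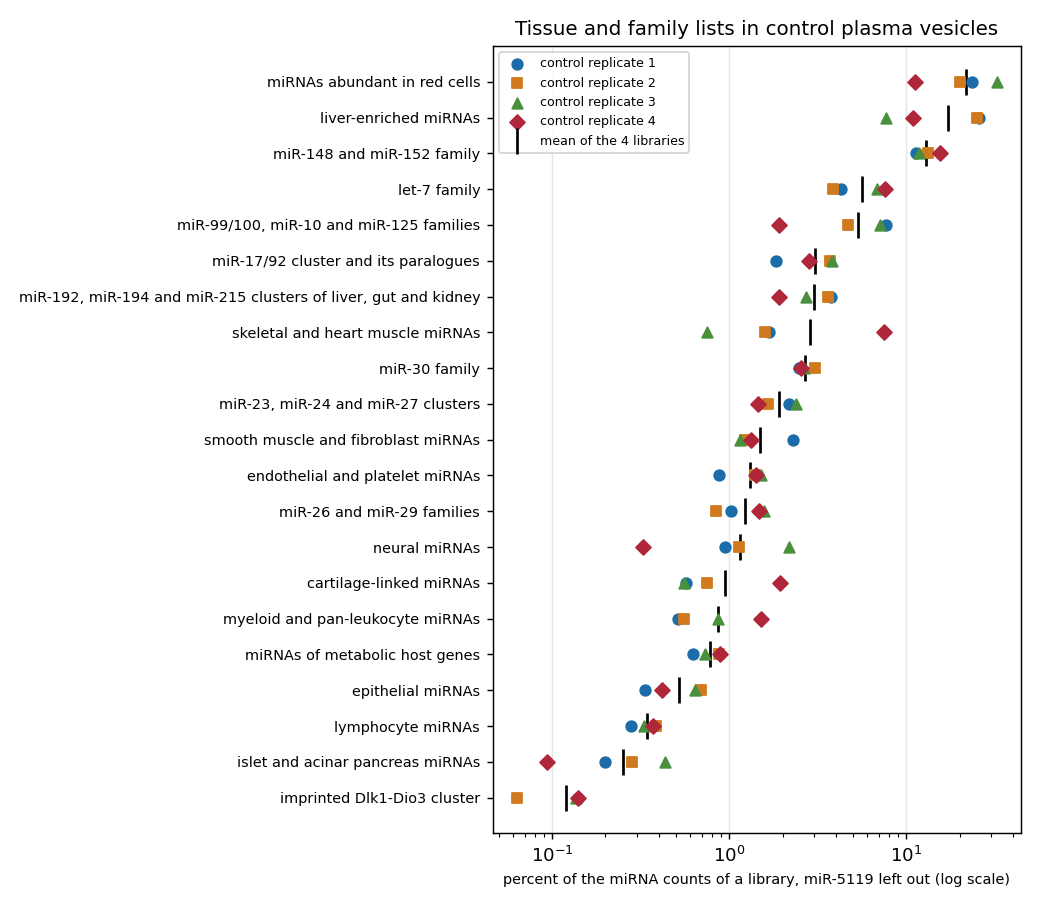
Summed share of each tissue or family list in each library, in percent on a log scale, miR-5119 left out; points are the 4 control libraries and black bars their means. The lists of red cell, liver and miR-148 and miR-152 miRNAs lead with means of 21.7%, 17.3% and 13.0%, and the muscle list of replicate 4 stands at 7.45% beside 0.747% to 1.67% in the others.

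Families that many tissues express were summed in the same way. The miR-148 and miR-152 family held 13.0% ± 1.84 (SD, n = 4), of which miR-148a-3p gave 99.2%. miR-148b-3p had 47, 52, 73 and 1 counts, and miR-152-3p 79, 10, 107 and 1. The miR-30 family held 2.48%, 3.05%, 2.66% and 2.54% (2.68% ± 0.257), the narrowest relative range of the 21 lists, at 1.23-fold from lowest to highest library. Within it, miR-30d-5p was lowest in replicate 4 and miR-30c-5p highest there, with 94, 100, 132 and 23 counts. The list of miR-378a and other miRNAs of metabolic host genes held 0.779% ± 0.126, of which miR-378a-3p, encoded within Ppargc1b, gave 95.9%.

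The let-7 family held 4.26%, 3.87%, 6.78% and 7.57% (5.62% ± 1.83, SD, n = 4, and 4.97% ± 1.58 without replicate 4). Its members did not move together between libraries. let-7b-5p held 1.44%, 0.862%, 1.06% and 0.280% and was lowest in replicate 4, whereas let-7g-5p held 0.399%, 0.282%, 0.503% and 2.33% and was highest there. let-7c-5p held 0.578%, 0.560%, 0.820% and 0.559%. let-7f-5p held 0.415%, 0.237%, 0.666% and 1.30%. The sources do not say how reads that fit several of these sequences were assigned, so each member is uncertain against the others.

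The miR-99/100, miR-10 and miR-125 families held 7.71%, 4.69%, 7.07% and 1.91% (5.35% ± 2.63, SD, n = 4, and 6.49% ± 1.59 without replicate 4). miR-10a-5p and miR-10b-5p, encoded within the Hox gene clusters, held 0.891% ± 0.442 and 0.878% ± 0.448, and they differ at 1 of 23 bases. miR-125a-5p had 1529, 265 and 1057 counts in replicates 1 to 3 and 0 in replicate 4, where that 0 allows up to 0.0699% against 0.479% to 1.21% in the others. The miR-17/92 cluster and its paralogues held 3.04% ± 0.914, and the miR-23, miR-24 and miR-27 clusters 1.91% ± 0.436. The miR-26 and miR-29 families held 1.23% ± 0.351, with miR-29a-3p at 369, 195, 376 and 6 counts and miR-29c-3p, which shares its seed, at 1, 0, 0 and 0. The imprinted Dlk1-Dio3 cluster, active in embryo and muscle, held 0.1198% ± 0.0377, and 11 of its 15 listed miRNAs had a count. The 21 lists together covered 138 miRNAs of the table and held 91.8%, 88.8%, 87.9% and 73.0% of the counts.

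The miRNAs found in the RefSeq table, from which a single chromosome had been left out, were grouped by seed. They hold 46.6%, 48.8%, 58.6% and 72.2% of the counts of replicates 1 to 4, and miR-122-5p, miR-486a-5p, miR-1a-3p and miR-143-3p are not among them, so seeds are not ranked over the whole profile. The seed CAGUGCA of miR-148a-3p held 13.0% ± 1.84 (SD, n = 4), GAGGUAG of the let-7 family 5.62% ± 1.83 over 9 members with a count, and AACCGUU of miR-451a 4.49% ± 1.97. AUUGCAC, shared by miR-25-3p, miR-92a-3p, miR-92b-3p and miR-32-5p, held 2.96% ± 0.898. UGACCUA of miR-192-5p and miR-215-5p held 2.90% ± 0.844, and ACCCGUA of the miR-99 family 2.82% ± 1.24. In each of these but GAGGUAG a single member held at least 70.4% of the seed's share. let-7i-5p held 34.3% of GAGGUAG, and miR-10a-5p and miR-10b-5p shared ACCCUGU nearly evenly, with 50.4% for miR-10a-5p.

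Members of 1 genomic cluster, which are transcribed together, were often counted unequally. miR-92a-3p and let-7c-5p have more than 1 locus, and the names counted give miR-24, miR-125b and miR-194 more than 1 precursor. Their counts may come in part from outside the cluster named. miR-451a gave 98.0% ± 0.637 (SD, n = 4) of the counts of its cluster with miR-144. miR-192-5p gave 94.03% to 97.5% of the pair with miR-194-5p over the 4 libraries, and miR-25-3p 97.6% ± 0.816 of the cluster with miR-93-5p and miR-106b-5p. miR-92a-3p gave 95.4% ± 2.79 of the counts of miR-17-5p, miR-20a-5p, miR-19b-3p and miR-92a-3p. miR-99a-5p gave 83.5%, 74.8%, 77.4% and 60.3% of its cluster with let-7c-5p and miR-125b-5p. In these 5 clusters, and in miR-143 with miR-145a, the same member led in 4 of 4 libraries. In the other 3 clusters described it did not. Of miR-23b-3p, miR-27b-3p and miR-24-3p, miR-24-3p held 62.1%, 68.6% and 70.5% in replicates 1 to 3, but miR-27b-3p led in replicate 4 with 64.3% of 42 counts. Of miR-99b-5p, let-7e-5p and miR-125a-5p, miR-125a-5p held 82.5%, 62.4% and 75.9% in replicates 1 to 3 and was at 0 in replicate 4, where the cluster had 6 counts. miR-183-5p led miR-182-5p in replicates 1 to 3 and tied with it at 1 count each in replicate 4. Library kits capture small RNAs unequally by sequence, so these shares compare counts and not copies.

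Of the 45 miRNAs with at least 10 counts in each library, 37 had a sequence in the RefSeq table as used here and were described by its letters. U was the first base in 25 of 37 (67.6%), compared with 490 of 1167 (42.0%) matched miRNAs of the whole table. Their median GC content was 45.5%, against 52.4% for all. GGAG, a motif linked to vesicle loading in T cells, occurred in 0 of 37 and in 15.8% of all matched miRNAs, and CCCU in 3 of 37 and in 11.6%. Motifs were searched on the mature strand only. miR-122-5p, miR-486a-5p, miR-1a-3p and miR-143-3p are among the 45 but had no sequence here. The values above, the 0 for GGAG included, therefore do not cover these leading miRNAs. The values are descriptions without a test, and the 45 were chosen by their counts.

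A few miRNAs held most counts. The 3 leading miRNAs of each library held 56.4%, 55.4%, 45.02% and 33.5% of its counts, and the leading 10 held 72.9%, 70.1%, 65.4% and 55.9%. It took 3, 3, 4 and 8 miRNAs to reach 50% of the counts and 30, 39, 39 and 65 to reach 90%. The effective number of miRNAs, the exponential of the Shannon entropy, was 20.1, 22.99, 28.4 and 48.0 (29.9 ± 12.6, SD, n = 4, and 23.8 ± 4.20 without replicate 4). Replicate 4 was the least concentrated library by each of these measures.

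**Figure D3:**
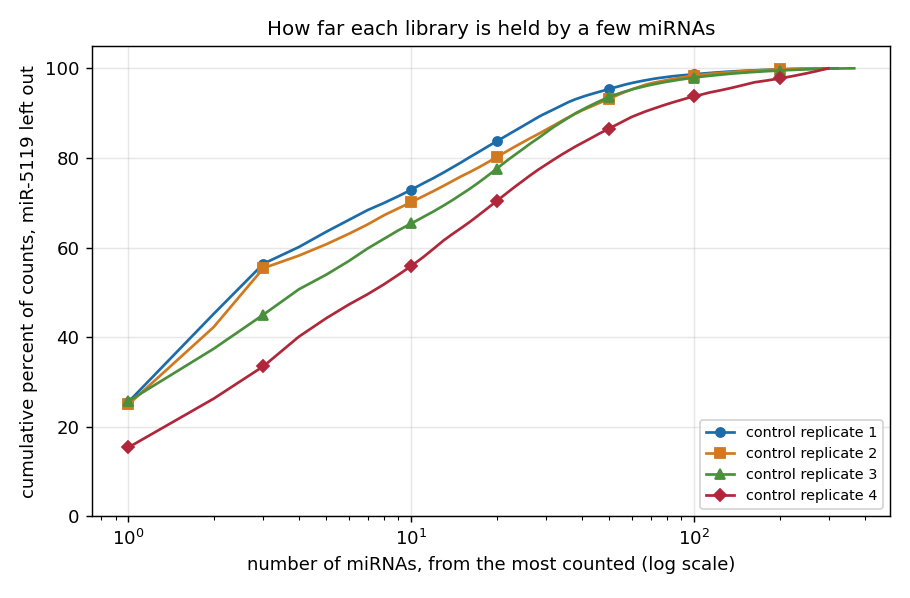
Cumulative share of counts, in percent, against the number of miRNAs taken from the most counted downward on a log scale, 1 line per control library, miR-5119 left out. The curves of replicates 1 to 3 reach 65.4% to 72.9% at 10 miRNAs and that of replicate 4 reaches 55.9%.

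Many miRNAs were seen in a single library. Of the 1353 miRNAs of the table other than miR-5119, 760 had no count, 275 had a count in 1 library, 97 in 2, 89 in 3 and 132 in all 4. The 132 held 97.2%, 97.4% and 97.1% of the counts of replicates 1 to 3 and 83.8% of replicate 4. The 275 seen in 1 library held 0.0786%, 0.143% and 0.217% of replicates 1 to 3 and 9.76% of replicate 4. At least 1 count was found for 321, 279, 367 and 297 miRNAs, and at least 10 for 160, 130, 197 and 60. At the 4293 counts of replicate 4, the expected numbers with at least 1 count were 139, 150 and 163 for replicates 1 to 3, so the shallowest library listed more miRNAs than the others would at its depth.

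Part of this excess had names, picked here after their values were seen. miR-7082-5p held 3.03% of replicate 4 with 130 counts, against 9, 0 and 8 counts in replicates 1 to 3. miR-7222-3p had 92 counts in replicate 4, miR-6990-5p 49 and miR-8099 43, and all 3 were at 0 in the other libraries. miR-6538 was the counterpart in replicate 2, with 18, 294, 133 and 2 counts. A further pair of late entries come under the rule for naming miRNAs. miR-5106 had 12, 102, 39 and 85 counts, which is 0.00953%, 0.184%, 0.0299% and 1.98%. miR-5108 had 31, 82, 324 and 47 counts, which is 0.0246%, 0.148%, 0.248% and 1.09%. The origin of these reads was not tested.

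The spread between libraries was described over the 45 miRNAs with at least 10 counts in each, which held 86.4% ± 5.97 (SD, n = 4) of the counts. Their median CV was 0.452, 28 had a CV below 0.5, and the median ratio of the highest to the lowest library was 2.95. After miR-148a-3p the steadiest were miR-378a-3p at 0.172, miR-30a-5p at 0.198, and miR-27b-3p and let-7c-5p, both at 0.202. The most variable were miR-5106 at 1.73, miR-5108 at 1.28, let-7g-5p at 1.11, miR-1a-3p at 1.099 and miR-199a-3p at 1.02, all highest in replicate 4. miR-122-5p and miR-486a-5p, the most abundant, had CVs of 0.541 and 0.545. Replicate 4 gave the highest share for 19 of the 45 and the lowest for 13. The filter tilts this tally and the list of the most variable. In replicate 4, with 4293 counts, 10 counts are a larger share than in the others, so many miRNAs low there were left out. Examples are miR-125a-5p, with 1529, 265, 1057 and 0 counts, and let-7d-3p, with 1462, 358, 1295 and 2.

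Without replicate 4, 116 miRNAs had at least 10 counts in every remaining library, and their median CV was 0.306. The steadiest of these was miR-532-5p with 0.152% ± 0.00215 (SD, n = 3), followed by miR-101b-3p. The common biological coefficient of variation, the edgeR estimate of relative spread beyond counting error, was 0.534 over 98 miRNAs with 4 libraries and 0.421 over 127 without replicate 4.

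**Figure D4:**
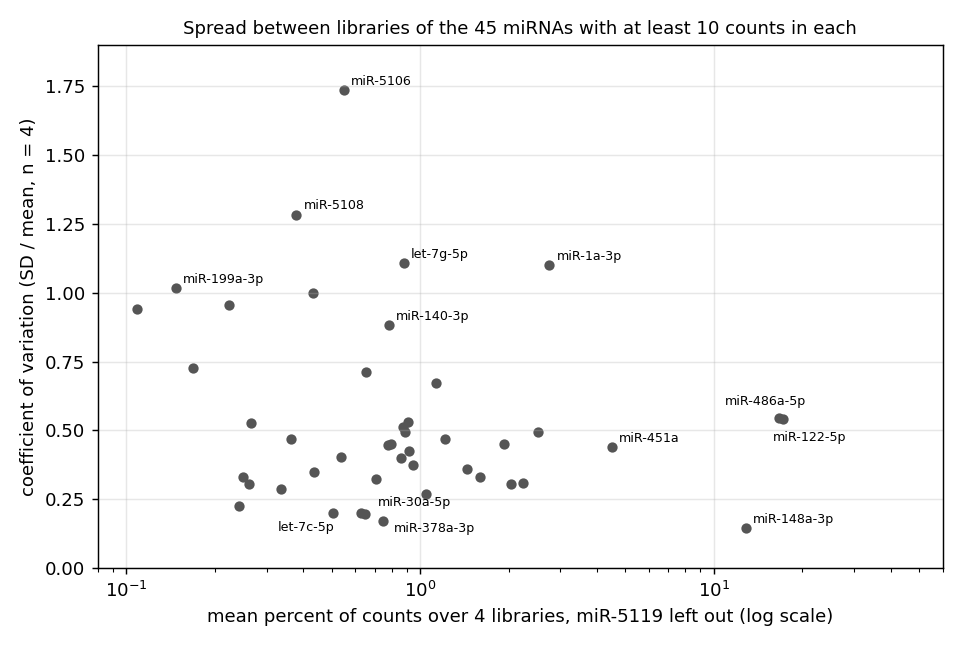
Coefficient of variation over the 4 control libraries (vertical axis, SD divided by mean) against the mean share of counts in percent (horizontal, log scale), 1 point per miRNA for the 45 with at least 10 counts in each library. miR-148a-3p combines a mean of 12.9% with the lowest coefficient, 0.145, and miR-5106 has the highest, 1.73.

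Arm use was compared within each library. The table holds 426 pairs of a 5p and a 3p arm, 280 of them with a count and 116 with at least 20 counts over the 4 libraries. Of these 116, 95 (81.9%) passed the edgeR quasi-likelihood test of 3p against 5p, with the library as a block and Benjamini-Hochberg adjusted p under 0.05. The 5p arm was higher in 49 (42.2%) and the 3p arm in 46 (39.7%). Whether the libraries are separate animals is not stated, so the p-values for arms may rest on technical spread. The arms of a pair differ in sequence and kits capture small RNAs unequally, so arm shares compare counts and not copies. The same arm was higher in every library for 67 of the 116, and the leading arm held over 90% of the pooled counts in 84. Summed over all pairs, the 5p arms held 72.1%, 67.4%, 67.0% and 51.9% of the pair counts (64.6% ± 8.79, SD, n = 4). This sum was carried by miR-122-5p and miR-486a-5p. Without these 2 pairs, left out after the values were seen, the 5p arms held 42.02%, 35.6%, 44.9% and 36.1% (39.6% ± 4.55). The 3p arms of the remaining pairs thus led in every library. All pairs together covered 86.7%, 85.0%, 81.8% and 60.6% of the counts of replicates 1 to 4. miRNAs in no pair are outside both sums.

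The 8 pairs with the most counts each used nearly a single arm, in 4 of 4 libraries. miR-486a gave 99.1%, 97.5%, 97.4% and 98.9% of its counts to 5p (adjusted p = 5.70e-12), and miR-122 at least 99.96% (adjusted p = 1.89e-24). miR-148a gave 0.0566%, 0.151%, 0.111% and 0.452% to 5p and the rest to 3p (adjusted p = 5.40e-19). miR-25 and miR-143 used the 3p arm, with 8, 1, 9 and 0 counts of miR-25-5p and a single count of miR-143-5p. miR-99a and let-7i had no count of the 3p arm in any library, and miR-30d had 1. Among the tissue miRNAs, miR-142a used mainly 5p (92.3% to 98.1% of its counts) and miR-126a mainly 3p (96.3% to 100%). miR-140 gave most counts to 3p in each library (adjusted p = 0.000206).

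A few pairs were balanced or switched. In miR-423, 5p held 49.3%, 58.6%, 80.1% and 90.9% of the counts, from 518, 414, 1626 and 30 counts of 5p and 533, 292, 403 and 3 of 3p. Replicate 1 thus stood at balance and replicates 3 and 4 far towards 5p, and the Wilson intervals of replicates 1 to 3 do not overlap. The pair did not pass the test of a common preference (log2 3p minus 5p of -1.34, adjusted p = 0.171). miR-150 held 87.3%, 47.5%, 59.4% and 63.6% in 5p and did not pass either (adjusted p = 0.261). miR-1843a and miR-1843b, whose precursors overlap the small Cajal body RNA genes Scarna3b and Scarna3a, lay between 50% and 68.2% in replicates 1 to 3 and did not pass (adjusted p = 0.403 and 0.768). In replicate 4 these 2 pairs had 2 counts and 1 count, all of 5p.

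miR-139, a miRNA of Pde2a whose 5p arm restrains growth signalling, changed its leading arm in replicate 4. Its 5p arm held 96.6%, 90.2% and 92.6% of the pair in replicates 1 to 3 and 5.00% in replicate 4, from 85, 37, 214 and 1 counts of 5p and 3, 4, 17 and 19 of 3p. The Wilson interval in replicate 4 was 0.888% to 23.6%, apart from the others. Across the 4 libraries 5p was higher (log2 3p minus 5p of -2.70, adjusted p = 0.0281). Without replicate 4 the estimate was larger (-3.84, adjusted p = 0.000243) and the call was lost without replicate 1, 2 or 3. Over all alternatives its adjusted p ran from 0.000243 to 0.9699.

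let-7d was added after its values were seen. Its 3p arm led in replicates 1 to 3, with 1462, 358 and 1295 counts against 62, 81 and 212 of 5p. In replicate 4 it had 2 counts of 3p and 8 of 5p. The preference for 3p passed the edgeR test (log2 of 2.19, adjusted p = 0.0491), became larger without replicate 4 (3.07, adjusted p = 0.00550) and missed the threshold without replicate 1, 2 or 3 and in DESeq2 (adjusted p = 0.0633). Over all alternatives its adjusted p ran from 0.000212 to 0.316. In miR-139 and let-7d, replicate 4 was thus the library that went against the other 3. At its depth the let-7d interval for 5p was 49.02% to 94.3%. Of the 18 pairs with at least 20 counts in every library, 16 had the same leading arm in all 4, and the 2 exceptions were miR-423 and miR-139.

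**Figure D5:**
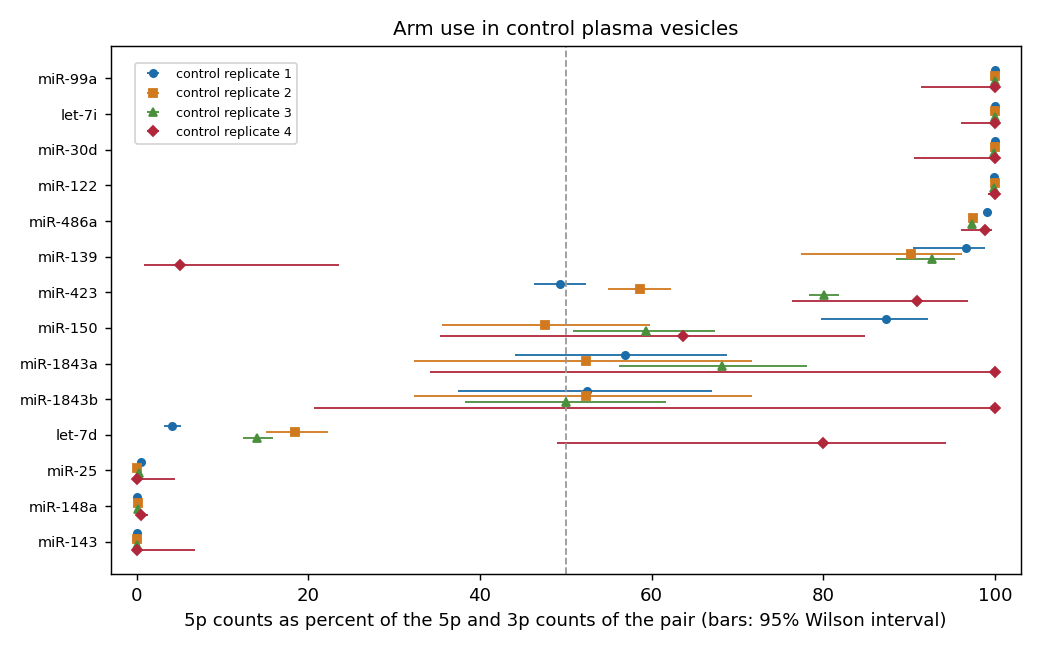
Share of the 5p arm in the 5p and 3p counts of a pair, in percent, for 14 precursors in the 4 control libraries, with 95% Wilson intervals that cover counting error only; the dashed line marks 50%. The most counted pairs lie at either end, miR-423 runs from 49.3% to 90.9%, and miR-139 is at 5.00% in replicate 4 beside 90.2% to 96.6% in the others.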

How the data were processed

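Small RNA of plasma vesicles was read in 4 control libraries, 1 of the groups of a 13-library series. The authors deposited unscaled counts for 1354 mature miRNAs, all of them integers, with library sums that differ. The tools bcl2fastq and cutadapt 1.10 were used, per the submitters' processing notes, and the labels' protocols name the NEBNext small RNA kit and TriPure. Aligner, counter, annotation and build were not given in the sources used here. Sample titles gave groups and replicate numbers, and no column of tumour-bearing mice was used.

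Shares were computed as percent of a library's counts with miR-5119 left out of the total, as mean ± SD over libraries. Wilson intervals have a level of 95%. Arms were tested with edgeR 4.0.16 (limma 3.58.1, R 4.3.3) by the robust quasi-likelihood test of 3p against 5p, with the library as a block, the library total without miR-5119 as library size, pairs with at least 20 counts over the libraries, and Benjamini-Hochberg adjustment at 0.05. The common biological coefficient of variation used TMM factors and the edgeR filter with a minimum count of 10. DESeq2 1.42.0 and limma voom were alternatives, beside other totals, scalings, filters and each library left out. The remaining steps ran in Python 3.11.15 (pandas 2.3.3, numpy 2.4.6, scipy 1.17.1).

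The miRNAs named are the 3 markers, the 15 with the highest mean share, miR-5119, the leading 2 of each of 21 lists, the 5 highest and 5 lowest CVs among those with at least 10 counts in each library, and for arms the 8 pairs with the most counts, the 4 pairs nearest to 50% among those with at least 100 counts, and pairs with at least 20 counts in every library whose leading arm differs. Members and lists were chosen with earlier results of these data known. The names of 1168 miRNAs matched the RefSeq table of 1679 mature sequences (GRCm38.p6), counted after a single chromosome was left out. A miRNA without a match may therefore still have a RefSeq sequence. Gene overlaps come from the GENCODE M21 annotation of GRCm38.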

Additional observations from a re-analysis of the deposited data

Results flagged for a closer look

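Of 95 values examined over the 4 libraries, 24 had a highest or lowest library far from the nearest other. Chance gives about 1 in 20 for independent values not chosen by their spread, which is no reference here, since some were named for their high CV or changing arm and lists were counted beside their own members. Replicate 4 was that library in 16 of the 24, 18 were high and 6 low. In replicate 4 the high shares were miR-1a-3p at 7.24%, let-7g-5p at 2.33%, miR-5106 at 1.98%, miR-140-3p at 1.82%, miR-146a-5p at 1.07% and miR-199a-3p at 0.373%, and miR-5119 at 46.1% of the full total. Its lists of muscle miRNAs at 7.45% and cartilage miRNAs at 1.93% and its late-numbered miRNAs at 15.8% were high too. Its leading miRNA, at 15.4%, was low, and its number of miRNAs at equal depth, 297, was high. Its log2 ratio of miR-451a to miR-23a-3p was low at 5.24, and its ratio of miR-451a to miR-486a-5p was high at 1.60. Its 5p share was low for miR-139, at 5.00%, and high for miR-1843b, at 100% of a single count.

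In replicate 1 miR-143-3p at 2.22% and the smooth muscle list at 2.28% were high and the endothelial and platelet list at 0.881% was low. In replicate 2 the Dlk1-Dio3 list was low at 0.0633%. In replicate 3 miR-142a-5p at 0.480% and let-7c-5p at 0.820% were high. There the 5p share of miR-30d was 99.96% and that of miR-143 0.0677%, each moved by 1 count.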

How the results depend on the processing

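A share was called the same under an alternative when its mean stayed within its SD over the 4 libraries. Counts were called the same within 1.5 times. By these rules most alternatives left shares and counts the same. Leaving out 1 library cannot move a mean of 4 by its SD, so the rule for shares could not fail there. The moves of shares in that setting are given as folds below. With miR-5119 in the total the miR-30 family list moved to 2.38%, more than its SD. The count of miRNAs with at least 10 counts in each library, 45, became 28 at 20 counts, 118 in at least 3 of 4 libraries, and 45 to 116 with each library left out in turn (116 without replicate 4). The common biological coefficient of variation became 1.11 with no filter beyond 1 count. The 49 pairs with 5p higher became 32 with a summed count of at least 100, where 70 pairs were tested in place of 116 and 64 of the 66 earlier calls among them passed in the same direction. Without the replicate block miR-139 turned to 0.0597 (log2 3p minus 5p, adjusted p = 0.9699), and no other named pair reversed. miR-139 (adjusted p = 0.0707) and let-7d (0.0770) missed the threshold at a summed count of at least 100, and let-7d (0.0958) with every counted pair in the test. The cause was not tested. Of the 95 pairs that passed, 74 did so in the same direction with DESeq2, 90 with limma voom, 90 without the block, and 91 of 94 without replicate 4, 71 of 84 without replicate 3.

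Of 71 shares of miRNAs and lists, 11 moved by over 1.5 times when 1 library was left out, 9 of them with replicate 4. Besides the values given above these were miR-5106 (0.551% to 0.0746%), miR-5108 (0.379% to 0.140%), let-7g-5p (0.878% to 0.394%), miR-146a-5p (0.432% to 0.218%), miR-140-3p (0.784% to 0.439%) and miR-199a-3p (0.148% to 0.0728%). The shares of miR-122-3p and miR-129-5p, of a few counts, moved without replicates 1 and 2. The 4293 counts of replicate 4 limit every share below 0.0699% there. No paired analysis was possible because a single group was used, and the block is the library that holds both arms.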
